A study of Homo sapiens with 18 samples.

Results

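Zinc finger genes whose symbols begin with ZNF or ZBTB and a number, ZBTB16 left out, were the nearest annotated gene at 174 of the 11571 sites mapped by ChIP-seq of GR, the glucocorticoid receptor, and of RELA, a subunit of NF-κB. These 174 sites of 400 bp belong to 79 genes, 13 with a ZBTB symbol (31 sites) and 66 with a ZNF symbol (143 sites), and the rule uses gene names and no measured value, although this group of genes was picked with earlier results of these data known. The cells were A549, an established human lung adenocarcinoma line, either untreated (NS) or exposed for 1 hour to IL-1β at 1 ng/mL, to the synthetic glucocorticoid budesonide at 300 nM, or to both together. Each of the 9 groups (4 treatments for GR, 4 for RELA, and input DNA) has 2 libraries, 18 in all. In the table used here, each factor is compared with NS after its own stimulus (budesonide for GR, IL-1β for RELA) and after both agents. It gives 1 value for each site and condition, so no depth per library, no error and no spread between replicates can be given for any value below. A549 is 1 cancer cell line, and binding was read at 1 time point.

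C2H2 zinc finger proteins hold a zinc ion in each finger and read DNA with runs of such fingers. Many ZNF proteins carry a KRAB domain, which recruits the corepressor TRIM28 and with it heterochromatin proteins, and their genes lie in large clusters, above all on chromosome 19. ZBTB proteins carry a BTB domain instead, through which they pair with one another and recruit corepressors such as NCOR1 and BCOR or the ubiquitin ligase scaffold CUL3. GR enters the nucleus on binding glucocorticoid and binds glucocorticoid response elements (GREs), whereas RELA enters it after cytokine stimulation and binds κB elements.

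Each value is given on 1 of 3 scales. The log2 fold compares a treatment with NS, the binding intensity is a level on a log scale whose base the sources used here leave unstated, and the FDR is the adjusted p-value of the fold. A site was called bound when the FDR was at most 0.05, the log2 fold was above 1 and the intensity was at least 4. A call present with a single treatment and with both treatments is maintained, a call that appears only with both is gained, and one present only with the single treatment is lost. A difference is the log2 fold with both treatments minus that with the single treatment, and it carries no test. Where 2 intensities stand together without further words, the first is for the single treatment and the second for both treatments.

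The closest GRE matches among these sites are shown first, because each GRE match found here lay at a site called for GR and not for RELA. The GRE was searched on both strands as AGAACA and TGTTCT separated by 3 bases, with at least 10 of these 12 positions matching within the central 200 bp. Each line gives the GRCh38 reference on the plus strand, with the 15 bp of the element in capitals. The element near ZNF366 (chr5:72434924-72434938), near ZBTB20 (chr3:114453950-114453964), near ZNF503 (chr10:76087255-76087269), in ZNF143 (chr11:9527748-9527762) and near ZNF767P (chr7:149547376-149547390) matched 11 positions. Of those with 10, the elements near ZNF217 (chr20:53830445-53830459) and at a second ZBTB20 site (chr3:114746155-114746169) are added because both genes are described below.
ZNF366: ccagctaAGAACAGTGTGTTCCttaaggg
ZBTB20: tttgtaaAGAACTCTTTGTTCTctagtga
ZNF503: gtagggcAGAACTGTTTGTTCTgtcctag
ZNF143: agagtggAGAACATTTTATTCTtgacact
ZNF767P: gcgttgcAGGACATCCTGTTCTaggtgtg
ZNF217: cccttgaGGAACATGAAGTTCTgcttatg
ZBTB20, second site: gcctttgGGAAGACAGTGTTCTtcccacc

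The κB elements of 6 sites follow, all at sites called for RELA, with the 10 bp of the element in capitals. They matched all 9 defined positions of the κB consensus, searched on both strands, and each is printed on the strand that holds the match. ZBTB25 (chr14:64504036-64504045, plus strand) carried the highest RELA intensity among the called sites after IL-1β, and the elements of ZBTB20 (chr3:114809978-114809987, plus) and ZNF217 (chr20:53699450-53699459, plus) hold the same 10 bases as that of ZBTB25. Those of ZBTB7A (chr19:4052605-4052614, plus), ZBTB17 (chr1:15985907-15985916, minus) and ZNF503 (chr10:75431351-75431360, minus) differ from it and from one another.
ZBTB25: gcgtgacccgGGGACTTTCCccagggtgtg
ZBTB20: tttttgagctGGGACTTTCCcctgtgttaa
ZNF217: cagttggtctGGGACTTTCCtggttttagc
ZBTB7A: ggcgtggctgGGGGAACCCCagggcgggcg
ZBTB17: gattgatgtgGGGAAATTCCtgtttacaga
ZNF503: gcctgaggtgGGGGTATTCCtatcaggggc

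Some of the strongest sites held neither element. The central 120 bp of the ZNF507 intron site (chr19:32373972-32374091) and of the site downstream of ZNF608 (chr5:124599764-124599883), which ranked high for GR, and of the ZBTB38 intron site (chr3:141414854-141414973), bound by both factors, are given on the plus strand. The first and second reach 9 of the 12 GRE positions within the central 200 bp and the ZBTB38 site 7, and all 3 reach 7 of the 9 κB positions.
ZNF507: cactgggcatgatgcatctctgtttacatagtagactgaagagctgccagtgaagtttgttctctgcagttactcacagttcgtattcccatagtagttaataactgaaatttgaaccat
ZNF608: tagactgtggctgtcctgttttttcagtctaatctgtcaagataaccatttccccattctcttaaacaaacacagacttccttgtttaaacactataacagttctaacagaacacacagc
ZBTB38: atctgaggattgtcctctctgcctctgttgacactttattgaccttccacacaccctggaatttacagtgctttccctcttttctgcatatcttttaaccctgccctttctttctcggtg

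GR was called with budesonide at 103 of the 174 sites, 59.2%, against 56.0% of all sites, and with IL-1β-plus-budesonide at 106, 60.9%, against 60.5%. RELA was called with IL-1β at 62 sites, 35.6%, against 40.9% of all sites, and with IL-1β-plus-budesonide at 61, 35.1%, against 42.1%. The GR shares were thus near the background and the RELA shares somewhat below it. Among the 202 sites within 50 kb of a ZNF or ZBTB gene, RELA was called with IL-1β-plus-budesonide at 88. That share was near the background, slightly above the 42.1% of all sites. By gene, 61 of the 79 had a GR call, 47 had a RELA call, 35 had both and 6 had neither. Of the 35 genes with calls of both factors, 31 had at least 1 single site called for both, and 4 had them only at separate sites. These counts by gene were not made over all nearest genes, so they stand without a background. A gene with more sites also has more chances of a call. The median GR intensity of the group was 4.92 with budesonide and 4.73 with both treatments, and the median RELA intensity was 3.91 with IL-1β and 4.17 with both treatments. Over all sites, the medians were 4.65 and 4.64 for GR and 4.26 and 4.37 for RELA.

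The 174 sites split into 82 called for GR alone, 31 for RELA alone, 43 for both factors and 18 for neither, taking a call with either treatment. These are 47.1%, 17.8%, 24.7% and 10.3% of the group, against 42.0%, 21.8%, 29.1% and 7.2% of all sites. Most sites lay far from the named gene. The median distance to its start was 86.1 kb, against 64.0 kb over all sites, 6 sites lay within 1 kb and 39 lay beyond 200 kb. In the GENCODE annotation 104 sites were intergenic, 59 in introns, 8 in UTRs and 3 in other exons, and 58 lay inside the gene they were named for. That share, 33.3%, compares with 46.1% of all sites. The start of the named gene was also the nearest start of a protein-coding gene at 122 sites, and at the other 52 GENCODE gave the start of another protein-coding gene as the nearest.

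The ZBTB genes included the single strongest GR site of the group. ZBTB7B encodes ThPOK, the factor that directs T cells to the CD4 lineage, and its gene held 2 sites. The site chr1:155017239-155017638, in a UTR 14.6 kb into the gene, had a GR intensity of 9.20 with budesonide and 9.06 with both treatments, percentile 99.8 of all sites in either case. Its GR log2 folds were 6.72 (FDR = 2.8e-09) and 6.59 (FDR = 6.1e-09). RELA was called there too, with an intensity of 4.98 after IL-1β (log2 fold 2.61, FDR = 0.0027) and 6.62 after both treatments (log2 fold 4.24, FDR = 9.8e-07), a difference of 1.63. The other site, 1.2 kb from the ZBTB7B start, was called for GR alone, with intensities of 5.72 and 5.11.

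ZBTB38, which encodes a protein that binds methylated DNA, had 6 sites inside the gene, 5 of them side by side at 85.5 to 90.5 kb from the start used in the table. The 2 strongest were called for both factors with every treatment, and their values hardly moved on combining the treatments. At chr3:141368196-141368595, which overlaps a RefSeq start of ZBTB38, the GR intensity was 7.01 with budesonide and 7.42 with both treatments, and the RELA intensity was 6.16 with IL-1β and 6.16 with both. At chr3:141414714-141415113, 90.5 kb from the start used in the table, GR had 6.54 and 6.98 and RELA 6.91 and 6.80. The GR log2 folds of the first were 9.01 (FDR = 4.5e-09) and 9.35 (FDR = 1.2e-09). Between them, at 85.5 to 88.8 kb, lay 4 weaker sites with GR intensities of 3.04 to 5.45 with budesonide. The one with a GRE match was called for GR alone, with 5.45 and 4.81. For the cluster of 5, the nearest protein-coding start in GENCODE is that of RASA2, a regulator of RAS signalling, although the sites lie inside ZBTB38.

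ZBTB20, a repressor known for silencing the fetal liver gene AFP, had 8 sites spread from 643.4 kb before to 693.1 kb after the start used in the table, 7 of them in introns of this long gene. GR alone was called at 5, RELA alone at 2 and both factors at 1. The GR-bound site holding the first ZBTB20 element above (chr3:114453728-114454127) had intensities of 4.53 with budesonide and 4.66 with both treatments (log2 folds 7.08 and 7.20), and RELA was near the floor, at 0.00 and 1.08. The strongest GR site of the gene, chr3:114893345-114893744, went from 6.20 to 4.89, a difference in log2 fold of -1.26. The second element above lies 180 bp upstream of a RefSeq start of ZBTB20, in a site with GR intensities of 5.95 and 5.72. RELA alone was called at chr3:114929245-114929644, with 5.05 after IL-1β and 4.53 after both, and at chr3:114941621-114942020, with 6.12 and 5.75. At the latter, GR had log2 folds of 4.78 (FDR = 0.0031) and 5.06 (FDR = 0.0017). Its GR intensities of 3.33 and 3.63 were below the 4 needed for a call.

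The site of ZBTB20 that holds the κB element behaved unlike its neighbours. At chr3:114809799-114810198 GR had an intensity of 3.04 with budesonide and 5.24 with both treatments, and RELA 3.85 with IL-1β and 5.36 with both. Neither factor was called after its own stimulus (GR log2 fold 0.16, FDR = 0.9; RELA log2 fold 1.16, FDR = 0.15). With both treatments, GR had a log2 fold of 2.96 (FDR = 0.0022) and RELA 2.91 (FDR = 7.5e-05). The differences were 2.80 for GR and 1.75 for RELA, among the 5 largest rises for each factor over the sites where that factor was called.

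RELA led at the start shared by ZBTB1 and ZBTB25, which are transcribed in opposite directions. ZBTB1 is needed for lymphoid development. The site chr14:64503839-64504238 overlaps RefSeq promoter windows of both genes, and its κB element lies 76 bp upstream of a ZBTB25 start. RELA had an intensity of 7.46 with IL-1β (log2 fold 3.59, FDR = 1.1e-09) and 6.96 with both treatments (log2 fold 3.06, FDR = 1.9e-07). GR was not called with budesonide, at 4.59 (log2 fold 1.03, FDR = 0.12), and was called with both treatments, at 5.68 (log2 fold 2.42, FDR = 9.1e-05). Inside ZBTB1, 11.4 kb from its start, a site with a GRE match was called for GR alone, with GR intensities of 6.03 and 5.25 and RELA intensities of 0.00 and 2.39. RELA there had a log2 fold of 4.01 (FDR = 0.0092) with both treatments, but its intensity was below the 4 needed for a call.

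ZBTB7A, a repressor also named LRF, had 1 intronic site (chr19:4052417-4052816) with the κB element shown. RELA had 6.06 with IL-1β (log2 fold 7.81, FDR = 6.6e-10) and 5.69 with both treatments, whereas GR rose from 2.79 without a call to 4.74 with one. ZBTB17, which encodes MIZ1, a partner of MYC, had RELA alone, with 5.41 and 4.58 against GR intensities of 1.01 and 1.73. ZBTB43 had RELA at 6.00 and 5.51, and GR at 4.74 without a call and 5.45 with a gained call. ZBTB40 had 3 upstream sites, all called for GR with either treatment, at intensities of 4.54 to 5.84. RELA was called at 2 of these. The call was gained 103.1 kb upstream (2.62 and 4.09) and maintained 37.2 kb upstream (4.32 and 4.48). At the other site, 92.0 kb upstream, RELA had no call and was lower than NS after IL-1β (log2 fold -2.31, FDR = 0.037). ZBTB18, a repressor active in neurons, lost its single weak GR call (4.32 and 3.90, difference -0.50). That site is intergenic, 292.4 kb from the ZBTB18 start, and the nearest protein-coding start is that of C1orf100. ZBTB7C had 1 GR site lost (5.43 and 3.72), 1 maintained (5.68 and 6.22) and 1 RELA site (4.56 and 4.62). ZBTB10 and ZBTB8B each had a maintained GR site, with intensities of 5.24 and 5.18 for ZBTB10 and 5.96 and 5.81 for ZBTB8B.

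Over the 31 ZBTB sites, GR was called at 21 (67.7%) with budesonide and 23 (74.2%) with both treatments, and RELA at 12 (38.7%) and 14 (45.2%). Over the 143 ZNF sites, GR was called at 82 (57.3%) and 83 (58.0%) and RELA at 50 (35.0%) and 47 (32.9%). The shares of all sites were 56.0% and 60.5% for GR and 40.9% and 42.1% for RELA. RELA calls were lost at 0 of the 31 ZBTB sites and 13 (9.1%) of the ZNF sites, against 8.75% of all sites. These counts describe the 2 families of names and were not compared by a test.

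ZNF608, which has a paralog in ZNF609, had the most sites, 12, from 736.4 kb upstream to 151.3 kb downstream of its start. GR was called at 7 of them with budesonide, and at all 7 the log2 fold was lower with both treatments. At the strongest, chr5:124599624-124600023, the GR intensity was 7.07 with budesonide and 5.87 with both (difference -1.14), with RELA at 4.86 and 4.75. At chr5:124655983-124656382, in an intron, GR had 7.05 and 6.49 and RELA 5.04 and 5.35. At 735.4 and 736.4 kb upstream, 2 sites 948 bp apart split the factors. The nearer had RELA at 4.69 with IL-1β and 3.61 with both treatments (a lost call, difference -1.12) with GR at 2.67 and 2.71. The farther had GR at 6.11 and 5.19 with RELA at 3.50 and 3.63. ZNF609 had 1 intronic GR site, with 5.62 and 5.97.

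ZNF217, an oncogene product amplified in breast cancer that works with corepressors, had 6 upstream sites from 12.6 to 220.3 kb away. The site chr20:53699297-53699696 held the κB element shown and gained GR. Its GR intensity was 1.66 with budesonide (log2 fold 1.34, FDR = 0.39) and 5.07 with both treatments (log2 fold 4.75, FDR = 0.00044), a difference of 3.40. RELA was called there with either treatment, at 4.32 (log2 fold 4.41, FDR = 0.00022) and 5.46 (log2 fold 5.42, FDR = 7.1e-06). Near 164 kb upstream, 2 sites 693 bp apart again split the factors. At chr20:53773967-53774366 GR had 4.46 and 2.85 while RELA had 2.65 and 2.91. At chr20:53774660-53775059 RELA had 5.83 and 5.37 while GR had 0.00 and 0.39. The site with the GRE (chr20:53830244-53830643) had GR at 5.55 and 6.01.

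ZNF703 and ZNF503 encode paralogous corepressors, and ZNF703 is an oncogene of luminal breast cancer. ZNF703 had 6 upstream sites, and at 5 of them GR was called with budesonide, with intensities of 4.77 to 5.99. With both treatments 3 of these 5 fell below 4, with GR going from 5.92 to 3.82 at 96.8 kb, from 5.40 to 3.49 at 222.8 kb and from 4.77 to 3.75 at 179.0 kb. These are lost calls with differences of -2.05, -1.88 and -0.99, although each log2 fold with both treatments was still 2.95 or more. The sixth site, 11.0 kb upstream, moved the other way, with GR at 2.12 and 4.36 and RELA at 5.10 and 5.17.

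ZNF503 showed a like pattern over a wider span. At 4 sites from 631.6 to 934.4 kb away, all in introns of LRMDA and nearer to its start, GR had intensities of 4.86 to 6.09 with budesonide and 3.98 to 5.07 with both treatments, and 3 of the 4 calls were lost. GRE matches lay in 2 of these 4 sites, both with lost calls. The one whose element is shown (chr10:76087039-76087438) went from 5.93 to 4.24, a difference of -1.93. Its log2 fold was 3.21 (FDR = 0.00089) with budesonide and 1.27 (FDR = 0.2) with both. The other ZNF503 GRE site (chr10:76269862-76270261) went from 4.86 to 4.09, a difference of -0.97. The fifth site, 29.2 kb from ZNF503 but 0.324 kb from the start of LRMDA, had RELA at 6.97 and 6.72, the second highest RELA intensity among the called sites after IL-1β, with GR at 2.49 and 3.98.

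ZNF281, a repressor linked to pluripotency and to the epithelial-mesenchymal transition, had 4 sites, all called for GR with either treatment. The strongest, chr1:200405252-200405651, lies in a UTR of the gene 4.4 kb from the start, with GR intensities of 7.48 and 7.27 (log2 folds 4.83, FDR = 1.7e-06, and 4.62, FDR = 4.8e-06). RELA was not called there with IL-1β, at 3.39 (log2 fold 0.88, FDR = 0.52), and was called with both treatments, at 5.65 (log2 fold 3.19, FDR = 0.0058). That difference of 2.31 was the second largest RELA rise among the sites called for RELA. ZNF507 held the second strongest called GR site with budesonide, chr19:32373832-32374231, with GR at 7.79 and 6.91 (difference -0.82) and RELA at 4.51 and 5.00. At 2 weaker intronic ZNF507 sites, 871 bp apart, the GR call was lost, from 5.85 to 4.87 (FDR = 0.055 with both treatments) and from 5.45 to 4.75 (FDR = 0.11).

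Other members of known role had fewer sites. ZNF366, also named DC-SCRIPT, a corepressor of nuclear receptors, had GR alone at the site of its GRE, with 5.45 and 4.87 (log2 folds 3.89, FDR = 1.4e-05, and 3.29, FDR = 0.00025). ZNF143, a promoter and chromatin loop factor, had GR at 5.43 and 5.20 in the site of its GRE, whose nearest start is that of WEE1, a kinase that holds back mitosis. ZNF341, an activator of STAT3 transcription, had a GR site 0.8 kb from its start with 6.69 and 5.09. ZNF644, a partner of the histone methyltransferases G9a and GLP, had GR at 4.93 and 5.38 and a gained RELA call (2.90 and 4.81, difference 2.01) at 5.8 kb. ZNF469, mutated in brittle cornea syndrome, had RELA at 6.36 and 5.98 and a gained GR call (2.90 and 4.87) about 184.4 kb upstream. ZNF423, a partner of EBF factors in adipocyte precursors, and ZNF462 each had a site that gained both factors. ZNF423 had GR at 2.89 and 4.85 and RELA at 4.27 and 5.48, and ZNF462 had GR at 3.48 and 5.39 and RELA at 4.01 and 5.26. ZNF395 had GR at 5.21 and 5.04. ZNF365 (GR 2.76 and 4.55, RELA 4.42 and 4.42) and ZNF407 (GR 3.96 and 5.34, RELA 5.17 and 6.00) each had a κB match, a RELA call with either treatment and a gained GR call.

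ZNF706, a small protein that holds back KLF4 in stem cells, had 10 sites, at 6 of which the nearest GENCODE start is that of GRHL2, an epithelial transcription factor. GR was called at 8 with budesonide, with intensities of 5.00 to 6.21. At the RELA site inside GRHL2, RELA had 5.61 and 5.69 while GR had 3.50 without a call and 4.55 without one.

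ZNF474 had 5 sites, from 36.0 to 263.3 kb from its start. The nearest protein-coding start in GENCODE was that of SNCAIP at 2 of them and that of a gene without a symbol at the others. GR alone was called at 3 sites, with intensities of 4.55 and 4.18 inside ZNF474 and 5.03 and 4.43 at a site with a GRE match. The last had 5.01 and 5.14, in an intron of SNCAIP, whose product binds α-synuclein. At the site 89.5 kb away, which holds a κB match, the RELA call was lost, with 4.22 and 3.65. The fifth site had no call.

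Sites at the start of the named gene were few. The 6 sites within 1 kb of it, 3.45% of the group as over all sites, belonged to ZBTB25, ZNF221, ZNF341, ZNF580, ZNF624 and ZNF782. At ZNF624 GR had 6.78 and 6.89, over the start, with RELA uncalled at 3.30 and 4.91. At ZNF782 GR had 5.70 and 5.40 in a site with a GRE match. At ZNF580 RELA was called with IL-1β at 5.62 (log2 fold 1.87, FDR = 0.014) and not with both treatments at 4.46 (log2 fold 0.29, FDR = 0.74), a difference of -1.59. ZNF221 held a κB match and had RELA at 4.97 and 5.43 with no call. About 1.1 kb upstream of ZNF579, GR went from 7.01 to 4.66, a difference of -2.23, with the call maintained.

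Of the 556 protein-coding ZNF and ZBTB genes in GENCODE 44, 77 were the nearest gene of a site, 13.8%, against 23.4% of the 19450 other protein-coding genes. The share was 4.37% (11 of 252) for those on chromosome 19, where the KRAB gene clusters lie, and 21.7% (66 of 304) for those on other chromosomes. Other protein-coding genes of chromosome 19 had a site in 13.5% of cases. The 2 remaining names are annotated as noncoding RNAs. The 16 sites on chromosome 19 had GR calls at 8 with budesonide and 6 (37.5%) with both treatments, and RELA calls at 6 (37.5%) and 4. Over all 294 sites on chromosome 19, GR was called at 153 and 194 (66.0%), and RELA at 154 (52.4%) and 158 (53.7%).

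A GRE match was found at 21 of the 174 sites, 12.1%, against 12.4% of all sites and 1.1% of the sequences 2000 bp from the members. All 21 were among the 82 sites called for GR alone (25.6%, against 23.2% over all sites of that class), and the 43 sites called for both factors had 0, against 8.1% of all such sites. This split rests in part on the minimum intensity of 4. With both treatments, RELA had a log2 fold of 4.99 (FDR = 0.00059) at the ZNF503 GRE site chr10:76269862-76270261. At the ZBTB1 GRE site it had 4.01 (FDR = 0.0092). The RELA intensities there, 3.25 and 2.39, were too low for a call. A κB match was found at 26 sites, 14.9%, against 18.7% of all sites and 1.7% of the sequences 2000 bp away. They fell on 9 of the 31 sites called for RELA alone (29.0%, against 45.4%), 9 of the 43 called for both (20.9%, against 22.4%), 3 of the 82 called for GR alone (3.7%, against 2.7%) and 5 of the 18 without a call (27.8%, against 16.8%). AP-1, the FOS and JUN factor, was searched as TGANTCA on both strands and was matched at 39 sites, 22.4%, against 21.0% of all sites. In the sequences 2000 bp away it was matched at 10.9% for the members and 6.4% for all sites. At chr4:141347734-141348133, about 126.8 kb from ZNF330, a GRE and a κB match lay in 1 site. GR had 3.68 and 5.26 there, a gained call, and RELA had 3.16 and 4.27 with no call. A match describes the letters of the reference and does not show that a factor binds them.

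**Figure D1:**
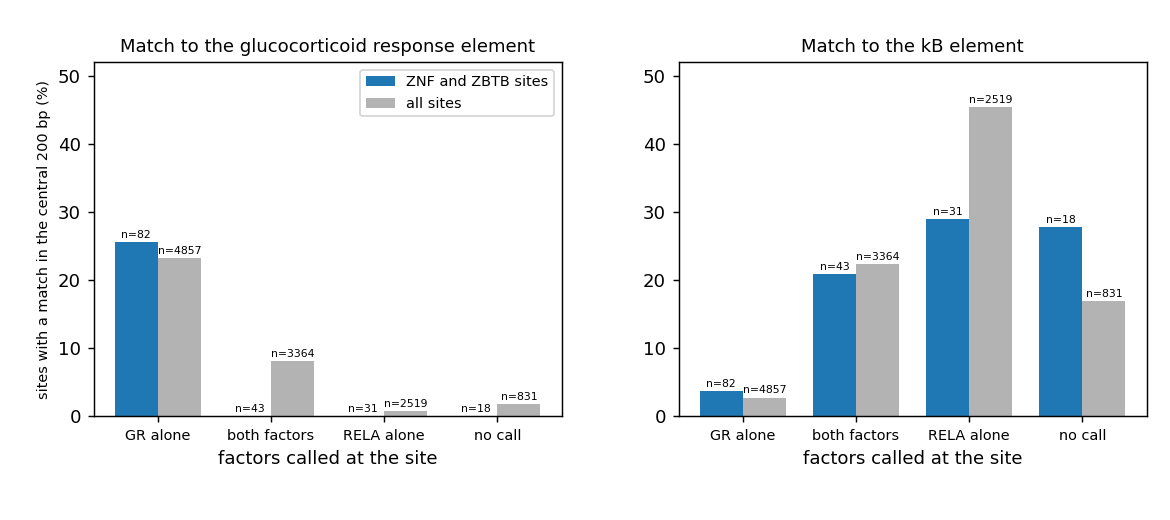
Percentage of sites with a GRE match (left) or a κB match (right) in the central 200 bp, by the factors called at the site, for the ZNF and ZBTB sites (blue) and all sites (grey), with the number of sites above each bar. The GRE bar of the ZNF and ZBTB sites is above 0 for GR alone only, and their κB bar for RELA alone stands at 29.0% against 45.4%.

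The 21 GRE sites did not stand apart from the rest of the GR-alone sites in strength. Their median GR intensity was 5.45 with budesonide and 5.01 with both treatments, against 5.26 and 4.75 at the 61 without a match. Their median difference was -0.60, with 18 of 21 lower, and that of the 61 was -0.54, with 48 lower.

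Over the 125 sites called for GR with either treatment, the median difference in GR log2 fold was -0.27, and 81 (64.8%) were lower with both treatments. Over all such sites the median was -0.10, with 53.4% lower. At the 82 GR-alone sites the median was -0.56, with 66 (80.5%) lower, and at the 43 sites called for both factors it was 0.46, with 15 (34.9%) lower. Over all sites of these classes the medians were -0.55 and 0.86, with 75.8% and 21.2% lower. GR calls were gained at 22 sites (12.6%, against 15.1% of all sites) and lost at 19 (10.9%, against 10.5%). Of the 22 gained, 18 were at sites called for both factors, and of the 19 lost, 18 were at GR-alone sites. All sites showed the same split, with 1387 of 1742 gained GR calls at sites called for both factors. Of their 1216 lost GR calls, 1180 were at GR-alone sites. A call for RELA is part of what defines the classes, so these counts describe how the calls fall together.

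Among the 125 sites called for GR, the 5 largest GR rises were near ZNF704, ZNF438, ZNF518A, ZNF217 and ZBTB20, and all 5 sites were called for RELA with both treatments. At the ZNF704 intron site (chr8:80822845-80823244) GR had 1.91 with budesonide and 4.34 with both, a difference of 4.46, with RELA at 5.20 and 5.18. At ZNF438 (chr10:31101018-31101417) GR had 2.57 and 6.34 (log2 folds 1.94, FDR = 0.15, and 5.63, FDR = 8.1e-06), with RELA at 6.05 and 6.61. At ZNF518A (chr10:96092927-96093326) both factors were gained, GR from 3.02 to 5.87 and RELA from 1.17 to 4.33, with differences of 3.67 and 2.46. Larger GR differences stood at sites with no GR call, 4.85 near ZNF774, 4.71 near ZNF608 and 4.63 near ZNF184, where the GR intensity with budesonide was 0.00, 0.00 and 0.46. The RELA intensity of 1.17 at ZNF518A with IL-1β is low, so the size of that rise rests on a weak value.

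Among the same sites, the 5 largest GR falls were at a second ZNF704 site (4.56 and 1.68, difference -2.75), ZNF579, 2 ZNF703 sites and the ZNF503 site whose GRE is shown, and none of the 5 was called for RELA. ZNF704 thus had the largest rise and the largest fall among the called sites. The size of each rests on a weak GR value, 1.91 with budesonide for the rise and 1.68 with both treatments for the fall.

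Over the 74 sites called for RELA with either treatment, the median difference in RELA log2 fold was -0.07, with 43 (58.1%) lower, against -0.20 and 59.9% over all such sites. At the 31 RELA-alone sites the median was -0.48, with 27 (87.1%) lower, and at the 43 sites called for both it was 0.23, with 16 (37.2%) lower. Over all sites of these classes the medians were close to these, at -0.49 and 0.21, with 84.2% and 41.8% lower. RELA calls were gained at 12 sites (6.9%, against 9.90% of all sites) and lost at 13 (7.5%, against 8.75%). Among these 74 sites, the largest RELA rises were at ZNF518A, ZNF281, ZNF483 (2.70 and 4.85, difference 2.26), ZNF644 and ZBTB20, 5 sites that all had a GR call with both treatments. The largest falls were at ZNF692 (5.45 and 4.23, difference -1.63), ZNF580, ZNF792 (6.21 and 4.06, difference -1.40), a ZNF608 site and ZNF710 (4.60 and 3.64, difference -1.03), and none of these 5 had a GR call. Strong RELA sites with little GR included ZNF774 (chr15:90343187-90343586), with RELA at 6.86 and 6.14 and GR at 0.00 and 2.72.

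**Figure D2:**
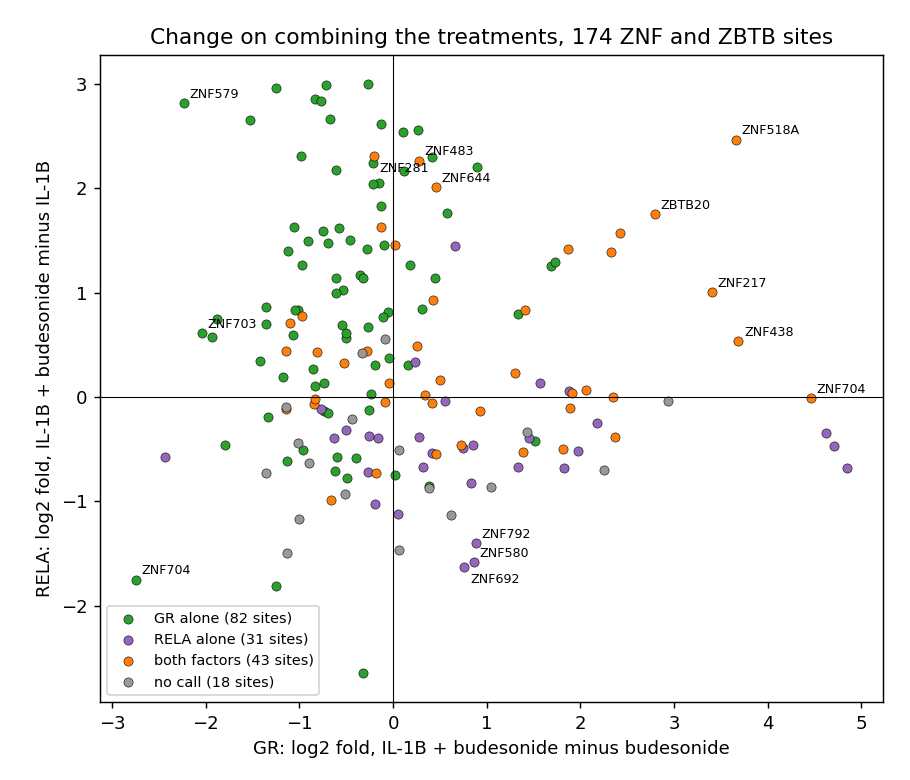
Difference in log2 fold on adding the other treatment, for GR (horizontal axis, both treatments minus budesonide) and RELA (vertical axis, both treatments minus IL-1β), at the 174 ZNF and ZBTB sites, coloured by the factors called. Most sites called for GR alone lie to the left of 0 and most sites called for RELA alone lie below 0, while the 5 largest GR rises among GR-called sites, near ZNF704, ZNF438, ZNF518A, ZNF217 and ZBTB20, were at sites called for both. The 3 points farthest to the right are sites called for RELA alone, with GR differences of 4.85, 4.71 and 4.63.

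A change of call was not always a large change. The difference was under 0.5 in size at 2 (10.5%) of the 19 lost GR calls and 0 of the 22 gained GR calls. For RELA it was under 0.5 at 2 (16.7%) of the 12 gained calls and 3 (23.1%) of the 13 lost calls. Over all sites the shares were 3.6% of lost and 2.8% of gained GR calls, and 8.6% of gained and 17.8% of lost RELA calls. At a ZBTB38 site, for example, the GR call was lost between intensities of 4.03 and 3.92. Within 5 kb of each other lay 19 pairs of neighbouring sites from 11 genes, and in 9 of these pairs the 2 sites fell into different classes. Such pairs were not counted over all sites, so this does not set these genes apart from others.

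The 18 sites without a call included some of the highest intensities of the group. ZNF716, a KRAB gene close to the centromere of chromosome 7, was named at 7 sites, and ZNF92, farther along the same chromosome, at 1. Over these 8 sites the GR intensity with budesonide ranged from 4.06 to 9.14 and the RELA intensity with IL-1β from 3.78 to 8.71. The highest, chr7:57489575-57489974, had 9.14 and 8.51 for GR and 8.71 and 8.35 for RELA, yet its log2 folds ran only from -0.99 to 0.36. A site near ZNF268 had 7.46 and 7.16 for GR and 7.50 and 7.31 for RELA, also with no call. ZNF707 had a site of similar intensity where RELA with both treatments was the only call, with GR at 6.24 and 6.69 and RELA at 6.37 and 7.57 (FDR = 0.02).

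Of 21 genes that KRAB proteins work through, 3 (14.3%; CHD4, MORC3 and UHRF1) were the nearest gene of a site, against 23.4% of the protein-coding genes outside the ZNF and ZBTB names. These had 3 sites in all, and TRIM28 and SETDB1 were the nearest gene of 0 sites. GR was called at 0 of these 3 sites with budesonide and 2 with both treatments, and RELA at 1 and 1, too few sites to set against the shares of all sites. Of 31 C2H2 genes with other symbols, 4 (12.9%; BCL6, PRDM1, ZFP64 and ZSCAN12) had 7 sites, with GR called at 4 (57.1%) and 5 (71.4%) and RELA at 4 (57.1%) and 2 (28.6%). Over all sites these shares were 56.0% and 60.5% for GR and 40.9% and 42.1% for RELA. BCL6 and PRDM1 encode repressors that oppose each other in B cells.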

How the data were processed

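GR and RELA ChIP-seq was made from A549 cells in 9 groups of 2 libraries, and per the labels the reads were aligned to GRCh38. The submitters' processing notes name bcl2fastq, FastQC 0.10.1, Bowtie2 2.4.4, SAMtools, MACS2 2.2.7.1 and DiffBind 3.2, with no role given. The authors deposited 1 table with 4 lines for each site, holding a fold over NS, taken as log2, a binding intensity used as a score on a log scale, and an FDR, a p-value adjusted over sites (q-value). It holds no counts and no values per library, so depth is unknown and no test was run. The tests are those of the deposited FDR. The rule for a call was recomputed and fitted the behaviour of each of the 11571 sites. Positions were read from GENCODE 44 and RefSeq promoter windows (GRCh38.p14), and the motif search was tested on simulated sequences. The members, lists and tests were chosen with earlier results of these data known. Named genes are ZBTB genes with a called site, the 10 genes with most sites, the 5 called sites of highest intensity per comparison, the 5 largest rises and falls per factor, and members of known role with a site. Genes named at gene starts, for their elements, at sites with no call or by their partner lists were added after their values were seen. The work used pandas 2.3.3 and SciPy 1.17.1 under Python 3.11.15, with figures in Matplotlib 3.10.9. The list of corepressor genes of BTB proteins is not reported here.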

Additional observations from a re-analysis of the deposited data

How the results depend on the processing

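Counts of called sites stayed within 1.5 times those reported with FDR at most 0.01, no minimum intensity or log2 fold above 2. The same held within 50 kb of a gene, by the nearest protein-coding start, and without noncoding names or the gene with the most sites. The 50 kb and nearest-start settings hold 202 and 145 sites in place of 174, so their counts are not like for like. RELA was called at 77 and 55 of these with IL-1β, and at 88 and 57 with both treatments. As a share, 88 of 202 lies slightly above the 42.1% of all sites, while 57 of 145 lies below it. With IL-1β, each share lies below the 40.9% of all sites. With intensities in place of folds, sites called with both treatments, or 1 site per gene, the median difference kept its sign, from -0.20 to -0.30 for GR and from -0.06 to -0.12 for RELA. GRE matches at 11 or more positions were found at 5 sites in place of 21, and κB matches at 8 or more positions at 75 in place of 26. No paired analysis was possible because the table holds no values per library, and leaving out a replicate was not run for the same reason. The depth of the libraries is unknown.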
